A study of Mus musculus with 20 samples.

Results

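The tripartite motif (Trim) genes encode ubiquitin ligases and related proteins, and they were followed in whole mouse liver through hemorrhagic shock, trauma and resuscitation. Members were the genes whose platform symbol is Trim followed by a number. Of 18193 genes with a probe set of their own, 58 were Trim genes, and 41 of these were bright enough to be tested among 12832 tested genes. A probe set was kept where it exceeded its array's median on 3 or more of the 20 arrays, and the brightest kept probe set stood for the gene. The study measured liver RNA of male C57BL/6 mice, 8 to 12 weeks old, on 20 Affymetrix Mouse430_2 arrays. The groups were non-manipulated controls (n = 5), minor trauma (n = 3) and hemorrhagic shock lasting 1.5 h together with severe trauma (n = 4, the shock group). The other groups had that same shock and trauma and then 1 h (n = 4) or 4.5 h (n = 4) of resuscitation. The labels used here do not say what the minor and the severe trauma consisted of, or at what time the minor trauma livers were taken. Because the controls were not manipulated, the effects of surgery and of shock cannot be told apart in a comparison with them. The labels do not say whether each array came from a separate mouse, so p-values measure only the spread between these arrays.

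Most Trim proteins share a RING finger that hands on ubiquitin, one or more B-box domains and a coiled coil, followed by a tail that picks the target. Many are induced by interferon and act in antiviral defence, either by binding viral parts or by tagging the relay proteins of nucleic acid sensing with ubiquitin. Others repress transcription on chromatin, bind the cytoskeleton, or serve in striated muscle. In the liver, interferon-responsive genes can be read out both from hepatocytes and from resident or arriving immune cells.

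Values are log2 of the deposited MAS5 intensity plus 6, quantile normalized over the 20 arrays, and the median of every array is 4.6 on this scale. Tests are limma's, adjusted by Benjamini and Hochberg over all 12832 genes, with a threshold of 0.05, and ± gives the standard error of a log2 fold change. The precision is limited by the number of arrays, 3 to 5 a group. The 2% trimmed means of the deposited values ran from 64.9 to 166.6 and their medians from 14.05 to 29.11, so the arrays had not been scaled to each other. A poly-A spike-in control, dap, read 283 to 1455 on 10 arrays and 1.11 to 6.67 on the other 10, and every group held arrays of both sets. Minor trauma held 2 arrays with the spike-in and only 1 without it. Array 3 of minor trauma had the lowest array weight (0.177), and the nearest array to control 5 over all genes was minor trauma 2 (r = 0.983), not another control. Where leaving out control array 5 or minor trauma array 3 ends a call, this is said beside the call or with the counts. The hepatocyte markers Alb, Apoa1, Ttr and Apob gave a summed intensity of 33100 to 38100 in controls and 33700 to 37500 at 4.5 h, and none of these 4 passed the test in any comparison. Serpina1a and Trf were not tested. Quantile normalization gives equal ranks equal values on every array, so steady sums of such bright genes say little about hepatocyte content.

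At 4.5 h of resuscitation relatives of Trim5 were many-fold higher and several ligases of innate sensing were higher too. The calls against control at earlier times were mostly falls, at 1 h in 8 of 41 Trim genes (19.5%, against 5.31% of all genes). With the values as deposited that count of 8 was 2. At 4.5 h against control, 13 of 41 Trim genes were higher (31.7%, against 15.1% of all genes tested) and 4 were lower (9.76%, against 23.8%). A rise of at least 2-fold was found for 10 Trim genes (24.4%), against 6.13% of all genes. Trim30a rose 15.7-fold and Trim30d 13.3-fold, and Trim2 and Trim37 fell. In whole liver, a change in the number of cells of a type and a change in RNA per cell cannot be told apart. The 5 groups differed for 20 Trim genes by limma's F test (48.8%, against 45.4% of all genes). In all, 22 Trim genes were called in at least 1 of 8 comparisons and 19 in none. The median log2 fold change at 4.5 h was 0.07 over the 41 Trim genes and -0.089 over all genes.

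**Figure D1:**
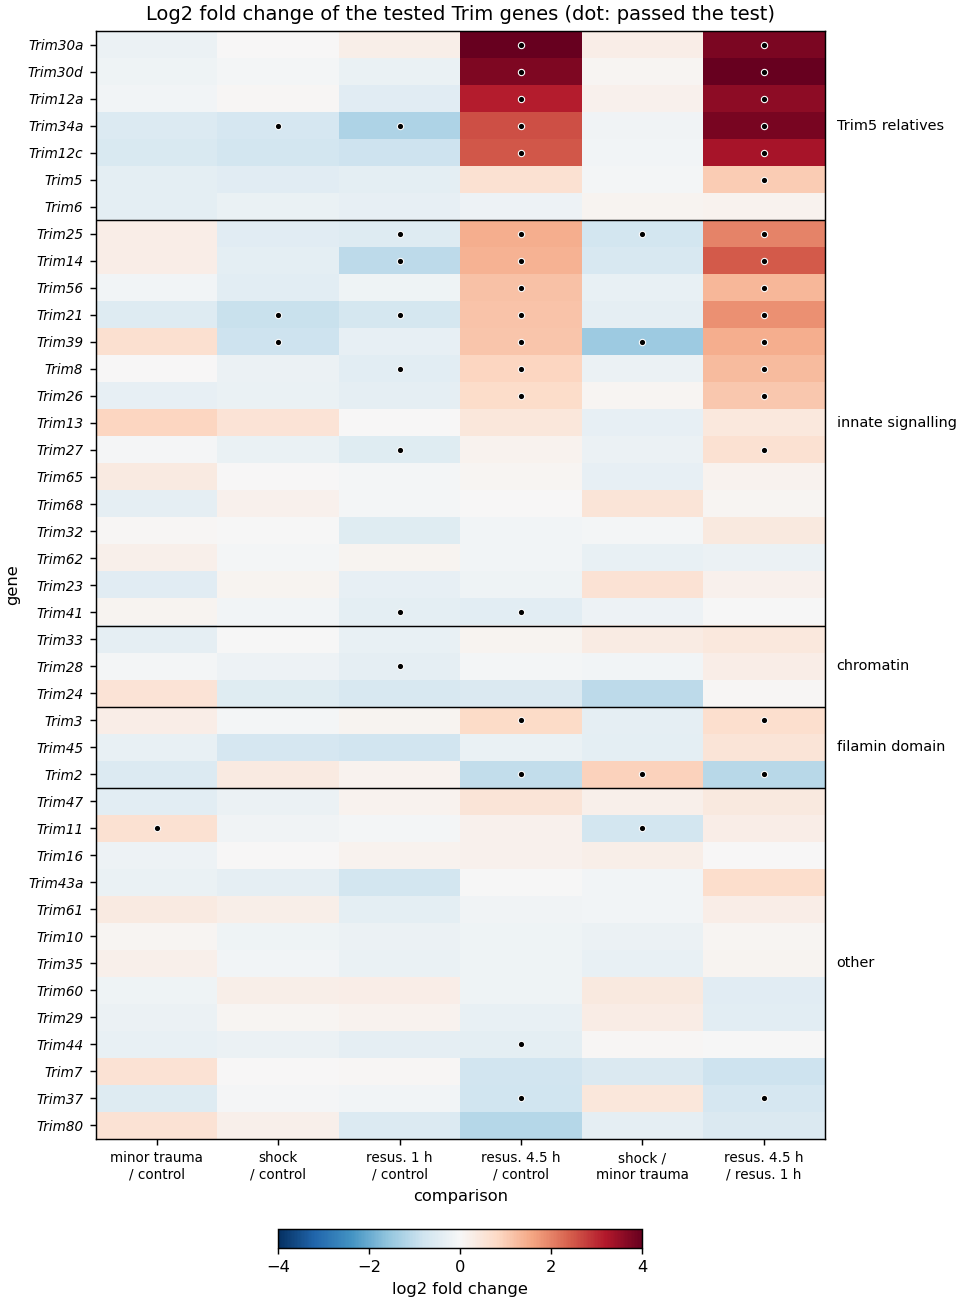
Log2 fold changes of the 41 tested Trim genes (vertical axis, grouped by role and ordered by the change at 4.5 h) in 6 comparisons (horizontal axis) as colour. Dots mark adjusted p of at most 0.05, and the dark block at the top is the 5 relatives of Trim5 that rose at 4.5 h.

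The relatives of Trim5 stand first. In primates TRIM5 recognises retroviral capsids, and the mouse carries a cluster of related genes on chromosome 7. In the RefSeq gene order this cluster runs Trim6, Trim34a, Trim5, Trim12a, Trim34b, Trim12c, Gm38525, Trim30b, Trim30c, Trim30a and Trim30d, and 7 of these genes were tested. Trim34b, Trim30b and Trim30c were not analysed here, as they have no single-gene probe set. Because neighbours in the cluster are closely related copies, a probe set may pick up RNA of a neighbour, and the values of single members are uncertain to that extent. At 4.5 h 5 of the 7 were higher than control and 0 were lower, against 15.1% and 23.8% of all genes, with a median log2 fold change of 2.57.

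Trim30a is known in the mouse as an interferon-induced brake on Toll-like receptor signalling. It read 6.55, 6.77, 6.67, 5.95 and 6.64 in controls, 6.72, 6.4 and 5.66 in minor trauma and 6.55, 6.87, 6.35 and 6.31 in shock. It read 6.41, 6.8, 7.03 and 6.72 at 1 h and 10.55, 10.62, 10.39 and 10.41 at 4.5 h. The 4 late arrays lay far above the other 16, which overlapped one another across all groups. The log2 fold change at 4.5 h against control was 3.98 ± 0.2 (15.7-fold, adjusted p = 4.05e-12 by limma), and against 1 h it was 3.75 ± 0.21 (adjusted p = 2.38e-11). A second Trim30a probe set gave 3.65.

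Trim30d, its neighbour, followed the same course. Its values were 6, 6.59, 6.53, 6.21 and 6.71 in controls, 6.26, 6.62 and 5.84 in minor trauma and 6.18, 6.42, 6.33 and 6.34 in shock. They were 6.27, 6.09, 6.02 and 6.17 at 1 h and 9.95, 10.45, 10.02 and 10.16 at 4.5 h. No array before 4.5 h reached 7, and all late arrays exceeded 9. The log2 fold change was 3.74 ± 0.16 against control (13.3-fold, limma adjusted p = 1e-12) and 4 ± 0.17 against 1 h (16-fold, adjusted p = 1.08e-12).

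Trim12a and Trim12c are mouse counterparts of primate TRIM5. Trim12a read 5.2, 5.49, 5.49, 4.69 and 4.7 in controls, 5.16, 4.96 and 4.89 in minor trauma and 5.32, 5.17, 4.98 and 5.22 in shock. It then read 4.67, 4.18, 5.25 and 4.56 at 1 h and 7.85, 8.5, 8.27 and 8.42 at 4.5 h. The earlier groups overlapped, and the late arrays stood apart from them. The log2 fold change against control was 3.15 ± 0.21 (8.85-fold, limma adjusted p = 2.97e-10), and it was 1.99 when the mean of both Trim12a probe sets was used, the second of them giving 0.83. For Trim12c the values were 6.4, 6.2, 6.19, 5.85 and 5.39 in controls, 5.58, 6.21 and 4.35 in minor trauma, 5.2, 5, 5.61 and 5.29 in shock, 5.47, 4.78, 5.27 and 5.18 at 1 h and 8.24, 8.82, 8.26 and 8.57 at 4.5 h. Minor trauma array 3 was its lowest value, and the late arrays did not overlap with any other. Trim12c rose by 2.47 ± 0.28 on the log2 scale against control (5.53-fold, limma adjusted p = 4.59e-07).

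Trim34a, whose human relative TRIM34 takes part in capsid restriction, moved down before it moved up on its brightest probe set. It read 7.23, 7.2, 7.35, 6.38 and 6.64 in controls and 6.77, 6.34 and 6.14 in minor trauma. In shock it read 6.31, 6.2, 6.22 and 6.39, at 1 h 5.92, 5.31, 5.92 and 5.71 and at 4.5 h 9.38, 9.53, 9.47 and 9.75. Every 1 h array lay below every control, minor trauma and shock array, and every 4.5 h array lay above all others. At 1 h it was 2.37-fold lower than control (log2 -1.25 ± 0.19, limma adjusted p = 9.33e-05). That call ended within the spiked poly-A set and with the mean of its 2 probe sets (-0.44), of which the second moved up. At 4.5 h Trim34a was 5.93-fold higher than control (log2 2.57 ± 0.19, adjusted p = 8.83e-10) and 14.1-fold higher than at 1 h (log2 3.81 ± 0.2, adjusted p = 1.07e-11).

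The remaining members of the cluster moved less. Trim5 itself lay near the array median, at 4 to 5.03 in controls, 3.88 to 4.28 in minor trauma, 3.78 to 4.44 in shock, 3.63 to 4.29 at 1 h and 4.56 to 5.44 at 4.5 h. Shock and 1 h gave only a bound, as all their arrays were at or below the median. Trim5 exceeded the median on 2 control arrays and 3 arrays at 4.5 h, so it met the filter only with the late arrays. Its late calls thus rest on the group that let it into the test. At 4.5 h Trim5 was at least 1.37-fold higher than at 1 h (limma adjusted p = 0.005) and at least 1.37-fold higher than in shock (adjusted p = 0.00267), while against control it missed the threshold (log2 0.61 ± 0.25, adjusted p = 0.0537). Trim6, whose human counterpart makes free ubiquitin chains that activate the kinase IKKε, was called in none of the comparisons, with log2 fold changes between -0.38 and 0.13.

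**Figure D2:**
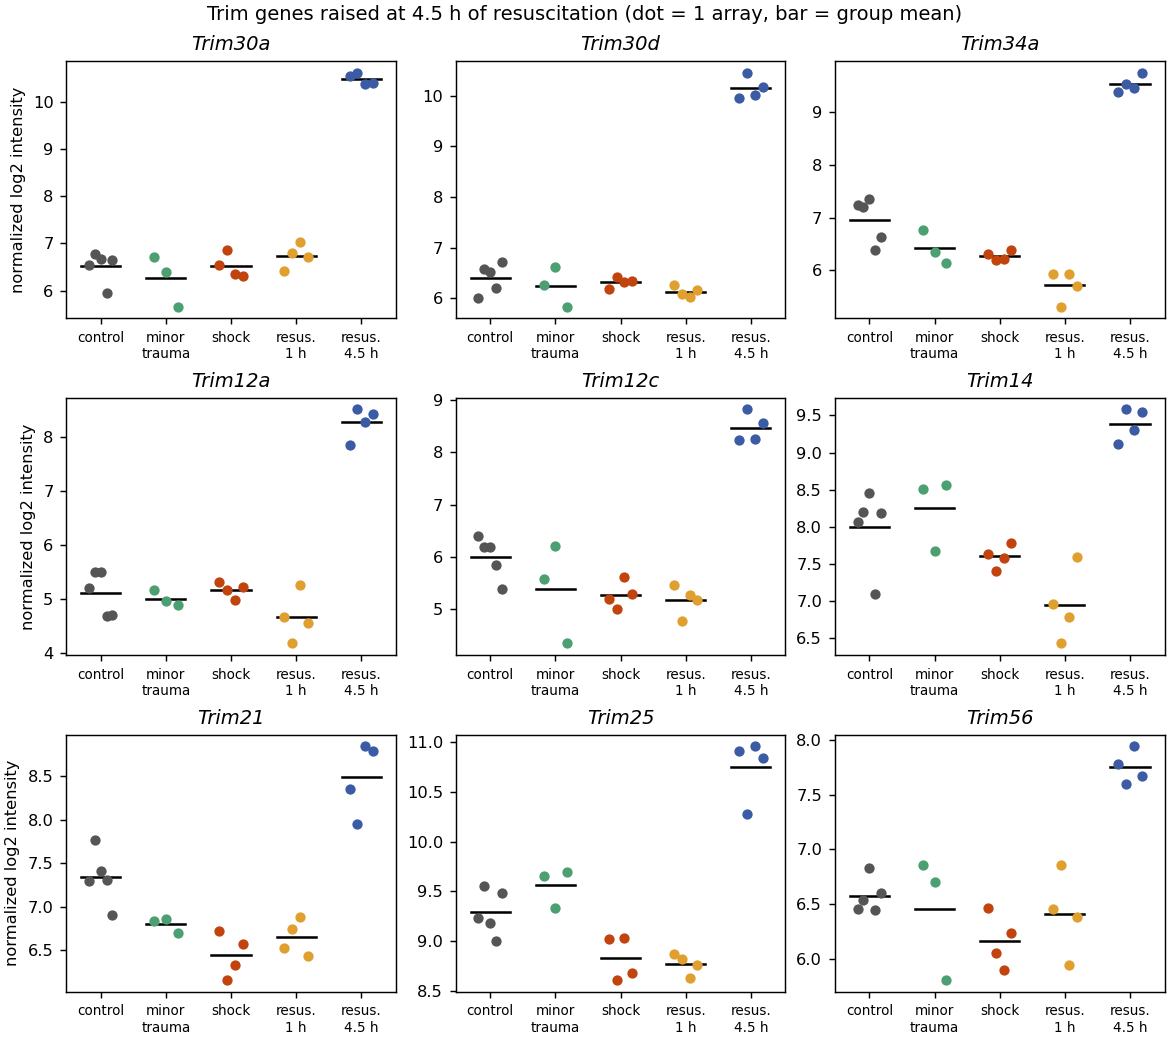
Normalized log2 intensity (vertical axis, a separate scale for each gene) on every array for 9 Trim genes, by group (horizontal axis), with 1 dot per array and a bar at the group mean. The 4 arrays at 4.5 h lie above all 16 others in each of the 9 panels. The group mean is lowest at 1 h for Trim30d, Trim34a, Trim12a, Trim12c, Trim14 and Trim25.

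The promoters of the cluster are shown because 5 of its 7 tested members were higher at 4.5 h, with Trim5 as a member that missed the threshold against control. The windows are RefSeq's, on GRCm38.p6, and each runs from 250 bases before the gene start to 50 after it, 5′ to 3′ on the gene's own strand. Capitals mark matches to GAAANNGAA or its reverse complement TTCNNTTTC, the core of the interferon-stimulated response element, to which interferon regulatory factors bind. Trim30a stands at chr7:104465144-104465443 and Trim12a at chr7:104315446-104315745, both on the minus strand. Trim5 stands at chr7:104288057-104288356 on the minus strand and Trim34a at chr7:104244207-104244506 on the plus strand.
Trim30a: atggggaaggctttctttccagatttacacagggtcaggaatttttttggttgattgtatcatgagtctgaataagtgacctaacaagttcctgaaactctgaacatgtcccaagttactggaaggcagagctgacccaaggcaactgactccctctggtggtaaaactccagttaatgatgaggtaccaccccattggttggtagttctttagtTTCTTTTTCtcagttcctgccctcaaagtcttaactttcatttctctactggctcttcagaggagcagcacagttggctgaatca
Trim12a: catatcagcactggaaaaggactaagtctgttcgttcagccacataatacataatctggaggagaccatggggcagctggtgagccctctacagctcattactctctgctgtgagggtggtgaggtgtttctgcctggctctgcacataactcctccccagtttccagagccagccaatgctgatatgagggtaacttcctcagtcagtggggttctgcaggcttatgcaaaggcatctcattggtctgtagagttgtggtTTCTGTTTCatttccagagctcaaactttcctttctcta
Trim5: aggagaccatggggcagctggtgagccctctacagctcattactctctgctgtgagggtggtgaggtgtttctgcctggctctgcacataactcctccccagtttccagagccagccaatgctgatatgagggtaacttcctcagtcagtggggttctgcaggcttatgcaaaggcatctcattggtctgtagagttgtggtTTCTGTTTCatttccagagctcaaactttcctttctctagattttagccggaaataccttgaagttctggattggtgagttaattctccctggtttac
Trim34a: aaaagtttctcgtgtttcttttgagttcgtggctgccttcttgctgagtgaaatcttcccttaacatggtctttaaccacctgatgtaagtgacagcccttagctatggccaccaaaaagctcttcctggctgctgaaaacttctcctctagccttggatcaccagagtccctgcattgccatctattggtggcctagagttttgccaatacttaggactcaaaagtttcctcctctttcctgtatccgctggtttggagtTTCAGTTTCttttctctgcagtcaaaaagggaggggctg

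The core was centred 31 bases before the start in this Trim30a window and 36 before it in Trim30d, with the same letters in both. In Trim12a it was centred 15 bases after the start, in Trim12c 24 before, in Trim5 44 before and in Trim34a 15 after. The windows of Trim12a and Trim5 hold a long common stretch around the core, and Trim12c holds nearly the same stretch. The windows of Trim30a and Trim30d are near-copies of each other, so within each of these sets the genes are not separate observations of the core. Trim5 carried the core and was not called against control, and Trim6 carried none in its window.

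Ligases and adaptors of innate sensing form the largest role group, with 15 tested members. At 4.5 h 7 of the 15 were higher than control and 1 was lower (median log2 fold change 0.44), against 15.1% and 23.8% of all genes. At 1 h 6 were lower and 0 higher (median -0.35), against 5.31% and 4.61% of all genes. Trim25 is the ligase that adds ubiquitin to the RNA sensor RIG-I. It read 9.23, 9.56, 9.18, 9 and 9.48 in controls, 9.66, 9.33 and 9.7 in minor trauma and 9.02, 8.61, 9.03 and 8.68 in shock, then 8.87, 8.82, 8.63 and 8.76 at 1 h and 10.91, 10.28, 10.96 and 10.84 at 4.5 h. The 1 h arrays were all below the controls and the 4.5 h arrays all above them. It was 2.75-fold higher at 4.5 h than in control (log2 1.46 ± 0.15, limma adjusted p = 1.09e-07), and 2 further probe sets gave 1.43 and 2.26. The fall at 1 h was smaller (log2 -0.52 ± 0.15, adjusted p = 0.0265), and its call ended in 11 of 34 alternatives.

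Trim14 lacks a RING finger and serves as an adaptor at the mitochondrial protein MAVS. Its values were 8.07, 8.2, 8.46, 7.1 and 8.18 in controls, 8.51, 7.68 and 8.56 in minor trauma and 7.64, 7.41, 7.58 and 7.78 in shock, with 6.96, 6.43, 6.79 and 7.59 at 1 h and 9.12, 9.58, 9.3 and 9.55 at 4.5 h. Control array 4 lay below the other controls and inside the range of the 1 h arrays, so those 2 groups overlapped, while the late arrays were above all others. Trim14 was lower at 1 h than in control (log2 -1.06 ± 0.25, limma adjusted p = 0.00706) and 2.61-fold higher at 4.5 h (log2 1.39 ± 0.25, adjusted p = 0.00013). A second, dimmer Trim14 probe set gave -0.01 at 4.5 h, and the mean of both gave 0.69.

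Trim21 is the cytosolic receptor for antibody-bound pathogens. It read 7.3, 7.76, 7.41, 7.31 and 6.91 in controls, 6.84, 6.86 and 6.7 in minor trauma and 6.72, 6.16, 6.33 and 6.57 in shock. At 1 h it read 6.53, 6.75, 6.88 and 6.44 and at 4.5 h 8.35, 7.95, 8.84 and 8.79. All shock, 1 h and minor trauma arrays lay below the lowest control, and all late arrays lay above the highest. Trim21 fell in shock (log2 -0.89 ± 0.18, 1.85-fold, limma adjusted p = 0.00609) and at 1 h (log2 -0.69 ± 0.18, adjusted p = 0.0169), and rose 2.21-fold at 4.5 h (log2 1.15 ± 0.18, adjusted p = 3.8e-05). The shock call ended with the values as deposited and within the other poly-A set. The 1 h call ended in 5 of 34 alternatives. Within the 10 arrays with the spike-in the late rise was 0.62 and was no longer called (adjusted p = 0.0758).

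Trim56, a ligase that strengthens STING signalling, was called only in comparisons with the 4.5 h group. It read 6.45 to 6.83 in controls, 5.81 to 6.86 in minor trauma, 5.9 to 6.47 in shock and 5.95 to 6.86 at 1 h, groups that overlapped, and 7.78, 7.6, 7.94 and 7.67 at 4.5 h. The late rise was 2.25-fold (log2 1.17 ± 0.19, limma adjusted p = 6.15e-05). Trim8 is a ligase of the kinase TAK1 in cytokine signalling. It read 6.11, 6.07, 6.2, 6.04 and 6.4 in controls, 5.82, 5.59, 5.59 and 5.99 at 1 h and 6.83, 6.98, 7.08 and 7.22 at 4.5 h, with no overlap between these 3 groups, and 6.04 to 6.34 in minor trauma and 5.8 to 6.17 in shock. It was 1.34-fold lower at 1 h (log2 -0.42 ± 0.13, limma adjusted p = 0.043, a call that ended in 19 of 34 alternatives) and 1.82-fold higher at 4.5 h (log2 0.86 ± 0.13, adjusted p = 1.98e-05). Trim26, which degrades nuclear IRF3, read 7.04, 6.92, 7.18, 6.6 and 6.58 in controls and 7.52, 7.29, 7.68 and 7.91 at 4.5 h, without overlap. It read 6.17 to 6.84 in minor trauma, 6.2 to 6.98 in shock and 6.12 to 6.78 at 1 h, and at 4.5 h was 1.66-fold higher (log2 0.73 ± 0.19, adjusted p = 0.00333). With the values as deposited, the late calls of Trim8 (0.62, adjusted p = 0.116) and Trim26 (0.5, adjusted p = 0.261) ended.

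Trim39, known for stabilising the apoptosis regulator MOAP1, was the Trim gene that differed most between shock and minor trauma. It read 6.12, 6.18, 6.05, 6.18 and 6.96 in controls, 6.84, 7.05 and 6.88 in minor trauma and 5.53, 5.08, 5.49 and 5.76 in shock, then 5.71, 6.01, 6.16 and 5.96 at 1 h and 7.41, 7.6, 7.59 and 7.01 at 4.5 h. The array labelled control 5 was 6.96, within the minor trauma range, and the other 4 controls did not exceed 6.18. Trim39 was 2.75-fold lower in shock than in minor trauma (log2 -1.46 ± 0.21, limma adjusted p = 0.000263) and 1.78-fold lower than in control (log2 -0.83 ± 0.18, adjusted p = 0.0105, 0.0614 without shock array 2). It was 2.15-fold higher than control at 4.5 h (log2 1.11 ± 0.18, adjusted p = 5.5e-05). Minor trauma against control did not pass (log2 0.63 ± 0.2, adjusted p = 0.0777). It passed without control array 5 and minor trauma array 3 together, with median centring, with array weights and with the replicate block.

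Smaller falls were found for Trim27 and Trim41. Trim27, a ligase that acts on TBK1, read 8.03 to 8.2 in controls and 7.58, 7.72, 7.77 and 7.54 at 1 h, without overlap, and 8.45, 8.39, 8.44 and 7.79 at 4.5 h. In minor trauma it read 7.86 to 8.48 and in shock 7.65 to 8.15. It was lower at 1 h (log2 -0.48 ± 0.15, limma adjusted p = 0.0455), a call that ended in 18 of 34 alternatives, 11 of them leaving out 1 array. Its level at 4.5 h was higher than at 1 h (log2 0.61 ± 0.16, adjusted p = 0.00486) but not than in control (adjusted p = 0.521). Against shock it was called higher at 4.5 h (log2 0.41, limma adjusted p = 0.0441). That call ended in 17 of 34 alternatives, 10 of them leaving out 1 array. Trim41 read 7.1 to 7.43 in controls, 7.12 to 7.67 in minor trauma and 7.07 to 7.3 in shock, then 6.81, 6.96, 6.81 and 6.92 at 1 h and 6.67, 6.94, 6.95 and 6.8 at 4.5 h. It was the only one of the 8 Trim genes lower at 1 h that was also lower at 4.5 h (log2 -0.39 ± 0.12 and -0.43 ± 0.12, limma adjusted p = 0.0382 and 0.00703). The 1 h call of Trim41 ended in 13 of 34 alternatives, and its 4.5 h call ended with the values as deposited and within the spiked poly-A set. The other 6 members of this role group, Trim13, Trim23, Trim32, Trim62, Trim65 and Trim68, were called in none of the 8 comparisons.

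The promoters of Trim25 and Trim21 are printed because they hold the core near the start in raised genes outside the cluster, where Trim26 holds 2 overlapping cores centred 155 and 149 bases before its start. Trim25 stands at chr11:88999153-88999452 on the plus strand and Trim21 at chr7:102565433-102565732 on the minus strand. In Trim25 the core was centred 5 bases before the start, and in Trim21 there were 2 overlapping cores, centred 17 and 23 bases after it.
Trim25: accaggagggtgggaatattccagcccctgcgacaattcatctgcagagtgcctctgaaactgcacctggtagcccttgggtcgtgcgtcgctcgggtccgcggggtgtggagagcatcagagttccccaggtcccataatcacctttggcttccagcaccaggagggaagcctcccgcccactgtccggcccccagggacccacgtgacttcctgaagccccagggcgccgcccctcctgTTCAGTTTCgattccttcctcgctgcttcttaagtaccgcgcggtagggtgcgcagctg
Trim21: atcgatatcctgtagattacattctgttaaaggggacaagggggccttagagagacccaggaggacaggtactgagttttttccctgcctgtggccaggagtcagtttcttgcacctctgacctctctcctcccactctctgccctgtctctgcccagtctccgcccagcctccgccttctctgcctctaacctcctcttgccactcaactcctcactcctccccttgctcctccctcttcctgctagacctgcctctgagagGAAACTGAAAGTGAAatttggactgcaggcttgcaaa

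Over the Trim genes that were tested, 32 had a RefSeq window and 11 of these held the core in at least 1 window (34.4%), against 9.76% of 27025 genes with a window of the same length. Of the Trim genes higher at 4.5 h 10 had a window, and 8 held the core (80%): Trim12a, Trim12c, Trim21, Trim25, Trim26, Trim30a, Trim30d and Trim34a. Trim39 and Trim56 had a window without it. Of the 4 lower genes 1 held it (Trim2), and of the 18 not called 2 did (Trim5 and Trim7). A second motif, the gamma-activated sequence TTCNNNGAA, was searched as well. It was held by 0 of the 10 raised genes and 1 of the 32 tested (3.12%), against 9.55% of all genes. Some of these windows are copies of one another: of the 8 raised genes with the core, Trim12a and Trim12c have near-copies, as do Trim30a and Trim30d. A match describes letters only.

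**Figure D3:**
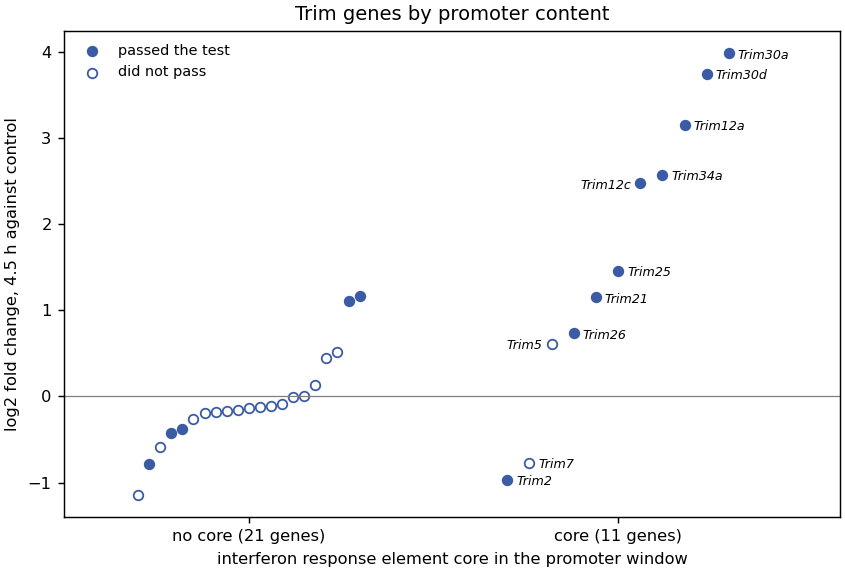
Log2 fold change at 4.5 h against control (vertical axis) for the 32 tested Trim genes with a promoter window, split by whether the window holds the response element core (horizontal axis, spread for legibility). Of the 11 genes with the core, 8 passed the test upward, Trim5 did not pass (0.61), and Trim2 (-0.97, passed) and Trim7 (-0.77, not passed) lie below 0.

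Of the chromatin regulators Trim24, Trim28 and Trim33, Trim28 was called in 1 of the 8 comparisons and the other 2 in none. Trim28 (KAP1) is the corepressor recruited by KRAB zinc finger proteins. It read 9.15, 9.15, 9.15, 9.3 and 8.88 in controls, 8.85, 8.97, 8.59 and 8.72 at 1 h and 9.09, 9.07, 8.95 and 9.04 at 4.5 h, with 8.91 to 9.26 in minor trauma and 8.87 to 8.99 in shock. The 1 h and control groups overlapped through control array 5. It was lower at 1 h (log2 -0.35 ± 0.1, limma adjusted p = 0.0372), a call that ended in 11 of 34 alternatives, and not called at 4.5 h (log2 -0.09 ± 0.1, adjusted p = 0.547). Among the tested partners of Trim28, 4 of 6 were lower at 4.5 h and 0 higher, where 23.8% of all genes were lower. They were Chd3 (log2 -0.97, adjusted p = 2.54e-05), Chd4 (-0.82, adjusted p = 6.67e-05), Cbx5 (-0.47, adjusted p = 0.0118) and Cbx1 (-0.37, adjusted p = 0.0445). Trim24, a cofactor of nuclear receptors, gave the largest log2 change among the 19 uncalled Trim genes, -1.04 ± 0.33 in shock against minor trauma (limma adjusted p = 0.0532). That difference passed under several alternatives, among them median centring, array weights and leaving out control array 5 and minor trauma array 3 together. By the F test over the 5 groups Trim24 passed (adjusted p = 0.0227) and Trim28 did not (adjusted p = 0.0755).

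Trim2, Trim3 and Trim45 carry a filamin domain, and at 4.5 h 1 of the 3 rose and 1 fell. Trim2 is a neuronal ligase of the neurofilament light chain. It read 7.95, 8.08, 7.38, 7.61 and 7.29 in controls, 7.29, 7.6 and 6.46 in minor trauma and 8.07, 7.92, 7.9 and 8.2 in shock, then 7.95, 7.63, 7.82 and 7.82 at 1 h and 6.82, 6.5, 6.73 and 6.7 at 4.5 h. The late arrays lay below every control, shock and 1 h array, and minor trauma array 3 lay below them. Trim2 was 1.96-fold lower at 4.5 h than in control (log2 -0.97 ± 0.19, limma adjusted p = 0.00033) and 2.52-fold lower than in shock (log2 -1.33 ± 0.2, adjusted p = 2.23e-05). Trim3, its close relative, read 6.42, 5.98, 6.39, 6.64 and 6.32 in controls, 6.5, 6.5, 6.26 and 6.54 at 1 h and 7.11, 7.25, 6.96 and 7.16 at 4.5 h, and the late arrays were above all others. Minor trauma read 6.56 to 6.72 and shock 6.15 to 6.42. It was 1.7-fold higher than control (log2 0.77 ± 0.12, limma adjusted p = 4.79e-05), and 0.53 with the values as deposited, where the call ended (adjusted p = 0.196).

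In the remaining group 2 of 13 genes were lower at 4.5 h, a share below the 23.8% of all genes, and 0 were higher. Trim37, a ligase of peroxisomal import, read 6.21, 6.19, 6.4, 6.04 and 6.18 in controls, 5.86, 5.6 and 5.59 in minor trauma, 6.21, 5.96, 6.4 and 6.01 in shock, 6.24, 5.73, 6.46 and 5.89 at 1 h and 4.98, 5.26, 5.76 and 5.66 at 4.5 h. Late and control arrays did not overlap, and the minor trauma arrays lay between them in part. The fall at 4.5 h was 1.73-fold (log2 -0.79 ± 0.17, limma adjusted p = 0.00089), and 4 other Trim37 probe sets gave -1.02, -1, -0.32 and 0.46. Trim44 read 8.29 to 8.63 in controls, 7.83 to 8.51 in minor trauma, 8.18 to 8.34 in shock, 8 to 8.27 at 1 h and 8.04 to 8.18 at 4.5 h, a late fall of 1.3-fold (log2 -0.38 ± 0.12, adjusted p = 0.0137). That call ended with the mean of its probe sets (-0.12, adjusted p = 0.603) and as deposited (-0.59, adjusted p = 0.137). Trim80 read 3.07 to 5.77 in controls, 4.51 to 5.19 in minor trauma, 3.51 to 5.15 in shock, 3.24 to 4.76 at 1 h and 2.98 to 3.26 at 4.5 h. It was called lower at 4.5 h than in shock (limma adjusted p = 0.0363), but the means of both groups lay below the array median and no fold is given. The call ended in 9 of 33 alternatives, among them leaving out any 1 array at 4.5 h or shock array 1, 2 or 4.

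**Figure D4:**
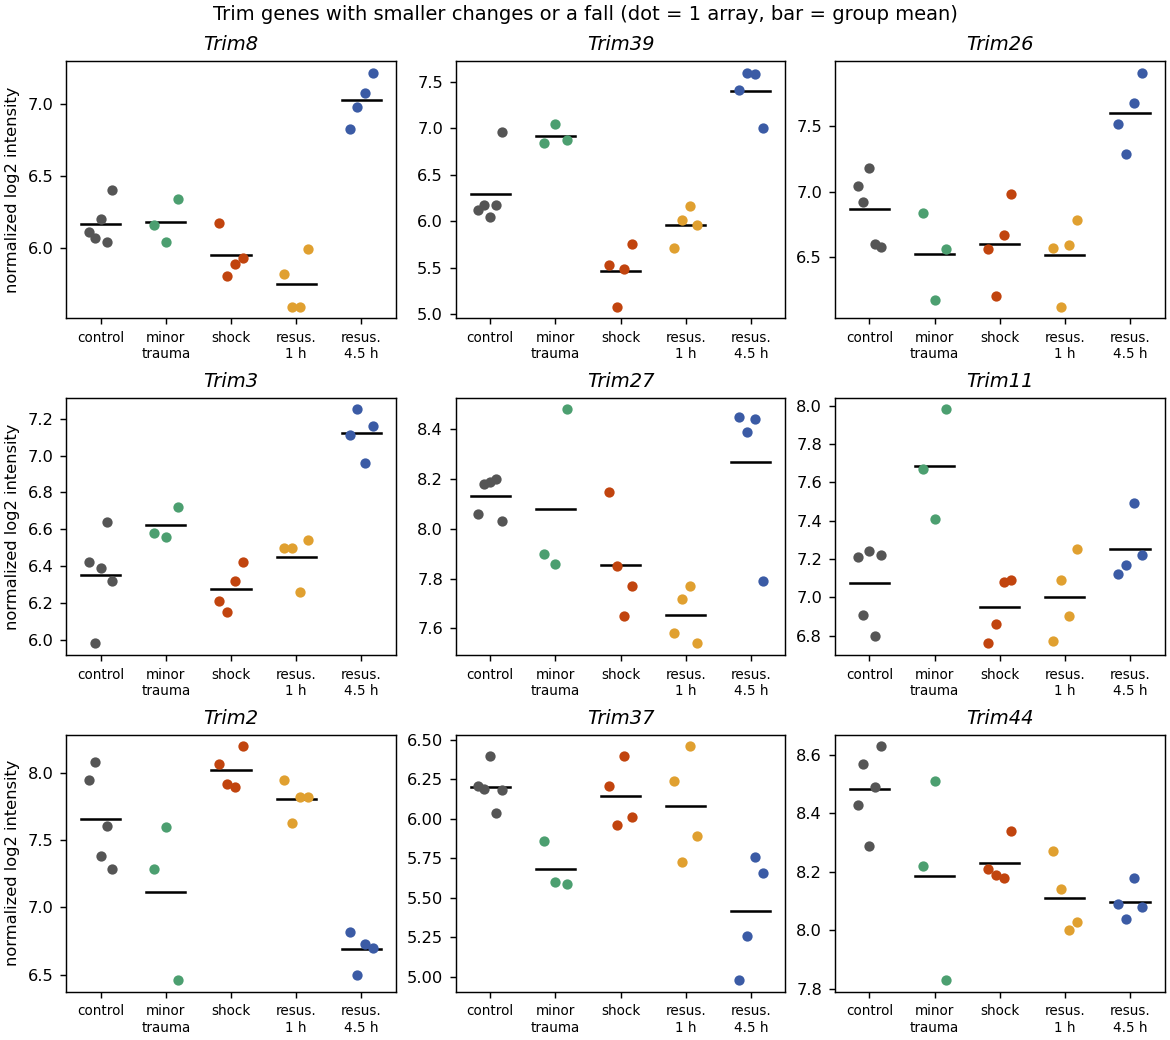
Normalized log2 intensity (vertical axis, a separate scale for each gene) on every array for 9 further Trim genes, by group (horizontal axis), with 1 dot per array and a bar at the group mean. Trim2 reads 6.5 to 6.82 at 4.5 h and 7.29 to 8.08 in controls, and the control dot at 6.96 in the Trim39 panel is the array labelled control 5.

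At 4.5 h the groups of arrays did not overlap with control for 13 Trim genes upward (12.1% of all genes) and 4 downward (18.7% of all genes), the same 17 that were called. Within the 10 arrays of the spiked poly-A set 13 Trim genes were called in this comparison, all among the 17. Within the other 10 arrays 16 were called, 15 of them among the 17, with Trim37 and Trim44 lost and Trim7 gained. Against 1 h, 15 Trim genes were higher at 4.5 h (36.6%, against 14.9% of all genes) and 2 were lower (4.88%, against 18.2%). Against shock, 15 were higher (36.6%, against 15.8%) and 3 lower (7.32%, against 21.6%). These comparisons share the 4.5 h arrays, and both counts of 15 include Trim5, which met the filter only with the late arrays. The count of 15 against shock also includes Trim27, whose call there ended in 17 of 34 alternatives. The 13 genes raised against control were also raised against shock and against 1 h, and Trim2 and Trim37 were lower in all 3. Of 22 other probe sets of the genes called at 4.5 h against control, 19 moved in the same direction at 4.5 h, 13 of them past the threshold, and the 3 that moved the other way were not called.

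Markers of other cells moved at the same time, and their part in these results was not tested. At 4.5 h the summed intensity of 6 tested neutrophil markers was 4060 to 4570 against 119 to 411 in controls, with 6 of 6 higher, and Ly6g, Cxcr2, Retnlg and Camp did not pass the filter. It was already 2710 to 4220 at 1 h, where 0 Trim genes were higher. The 4 tested monocyte markers summed to 1350 to 1830 at 4.5 h, 236 to 434 in controls and 408 to 440 at 1 h, with 3 of 4 higher at 4.5 h against control. Of 7 Kupffer cell markers 6 were lower and Marco was higher (1160 to 1450 against 2650 to 4070). Of 6 leukocyte markers 4 were higher (1480 to 1820 against 1040 to 1300), and 0 of 6 tested lymphocyte markers passed (106 to 170 against 131 to 168). Of 5 endothelial markers 2 were higher and 2 lower, and 2 of 8 skeletal muscle markers were bright enough to test, with 0 called.

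The wider interferon and nucleic acid sensing pathway was described from a list of 38 genes, of which 33 were tested. At 4.5 h 21 were higher than control and 2 were lower, against 15.1% and 23.8% of all genes, with a median log2 fold change of 1.01 against -0.089 for all genes. Usp18, the protease that removes ISG15, rose by 4.76 on the log2 scale (limma adjusted p = 8.17e-12), and the ISG15 ligase Herc6 by 4.07 (adjusted p = 2.59e-12). The nucleic acid sensor Zbp1 rose by 3.96 (adjusted p = 5.31e-12), and the RIG-I relative Dhx58 by 3.13 (adjusted p = 1.32e-10). On the same scale, Irf3 (-0.75, adjusted p = 3.03e-05) and Mavs (-0.68, adjusted p = 0.0038) were the 2 that were lower. At 1 h 5 of the list were higher and 1 lower, led by Irf1 at 2.11 (adjusted p = 2.51e-08), while 0 Trim genes were higher then.

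Genes of the family that carry other symbols are not members by the rule. Of 8 such genes 5 were tested, and 2 were higher at 4.5 h: Pml, the core of nuclear bodies, by 2.18 on the log2 scale (limma adjusted p = 2.99e-07), and Mefv, the pyrin of neutrophils and monocytes, by 1.63 (adjusted p = 8.23e-07). Pml read 5.53 to 5.93 in controls and 7.66 to 8.14 at 4.5 h. Mefv was also higher at 1 h (1.32, adjusted p = 6.36e-05), as was Mid1 (1.23, adjusted p = 0.0155).

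**Figure D5:**
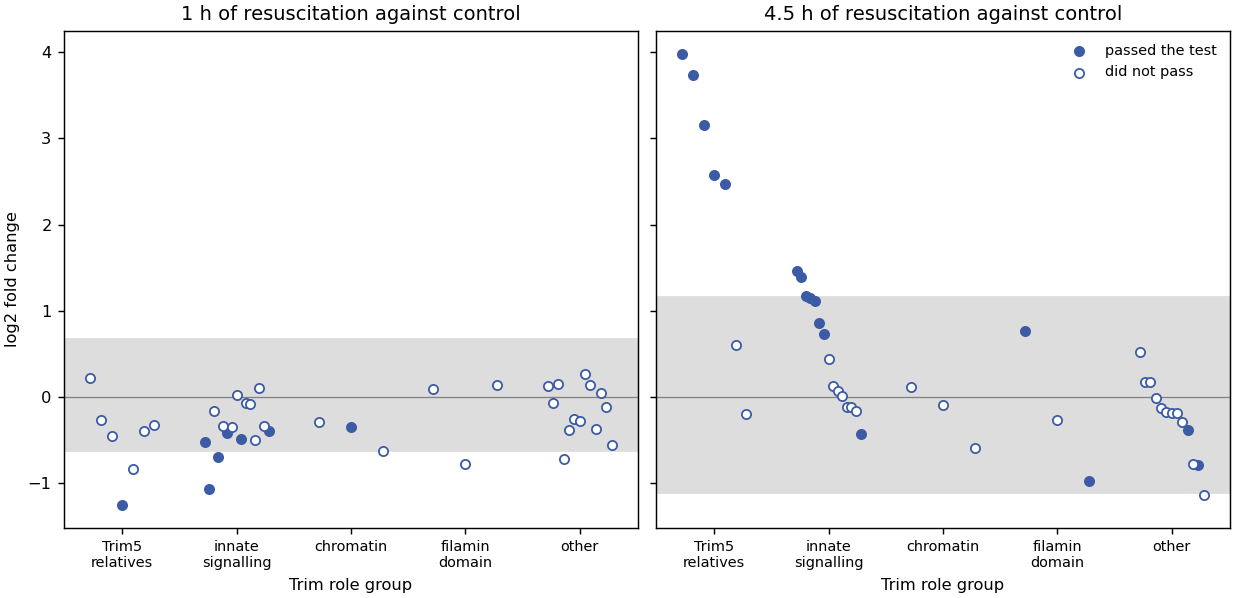
Log2 fold change against control (vertical axis) of the tested Trim genes by role group (horizontal axis, genes ordered by the 4.5 h change) at 1 h and at 4.5 h, with filled dots for adjusted p of at most 0.05. The grey band spans the middle 90% of all 12832 genes, -0.62 to 0.67 at 1 h and -1.11 to 1.16 at 4.5 h, and the 5 raised relatives of Trim5 lie at 2.47 to 3.98.

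Before 4.5 h the Trim genes called against control were mostly lower. At 1 h of resuscitation 8 of 41 were lower than control (19.5%, against 5.31% of all genes) and 0 were higher (against 4.61%). They were Trim34a, Trim14, Trim21, Trim25, Trim27, Trim8, Trim41 and Trim28. The 1 h and control arrays did not overlap for 7 genes downward (17.1%, against 7.64%). The median log2 fold change was -0.33 over the 41 Trim genes and -0.071 over all genes. Of the 8, 5 were higher than control at 4.5 h (Trim8, Trim14, Trim21, Trim25 and Trim34a). The count of 8 was 2 with the values as deposited, 3 with median centring, 0 within the spiked poly-A set and 2 within the other set. It was 3 to 5 without any 1 of control arrays 1, 2 and 3 or of the 4 arrays at 1 h. Without control array 5 the calls of Trim8, Trim25 and Trim41 ended, and without minor trauma array 3 as well only that of Trim8 did. Of 12 other probe sets of these 8 genes, 8 moved in the same direction at 1 h, 1 of them past the threshold, and 4 moved the other way.

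In shock 3 Trim genes were lower than control (7.32%, against 1.08% of all genes) and 0 were higher (against 2.03%). They were Trim21, Trim39 and Trim34a, and Trim34a (log2 -0.68 ± 0.19, limma adjusted p = 0.0482) was near the threshold and its groups overlapped. Without shock array 2 the count was 1, and within the spiked and the other poly-A set it was 1 and 0. Of 2 other probe sets of these genes 1 moved the same way and 1 the other, and neither passed. From shock to 1 h of resuscitation 0 Trim genes were called in limma's test, against 0.873% of all genes higher and 0.374% lower, and 5 Trim genes had an unadjusted p under 0.05. The smallest p-values were those of Trim34a (log2 -0.56 ± 0.2, adjusted p = 0.219) and Trim39 (log2 0.49 ± 0.19, adjusted p = 0.298).

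Minor trauma raised 1 Trim gene, Trim11, against control (2.44%, against 2.07% of all genes), and lowered 0 (against 1.37%). It read 7.21, 6.91, 7.24, 6.8 and 7.22 in controls, 7.67, 7.41 and 7.98 in minor trauma and 6.76, 6.86, 7.08 and 7.09 in shock, with 6.77 to 7.25 at 1 h and 7.12 to 7.49 at 4.5 h. The minor trauma arrays lay above all control and shock arrays. It was 1.53-fold higher than control (log2 0.61 ± 0.16, limma adjusted p = 0.0358). The count of 1 was 0 without control array 1, 2, 3 or 4 or minor trauma array 3, 3 without control array 5 and 4 without minor trauma array 2. Without control array 5 and minor trauma array 3 together Trim11 gave 0.5 and missed the threshold.

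The minor trauma group gives a second reference for shock. Trim39, Trim11 and Trim25 were lower in shock (7.32%, against 5.38% of all genes) and Trim2 was higher (2.44%, against 4.18%). Trim11 differed by -0.74 ± 0.16 (limma adjusted p = 0.00681), Trim25 by -0.73 ± 0.17 (adjusted p = 0.0085) and Trim2 by 0.91 ± 0.22 (adjusted p = 0.0109, 0.078 without minor trauma array 3).

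Of the 17 Trim genes that were not tested, the striated muscle ligases Trim54, Trim63 and Trim72 and the cytoskeletal Trim9, Trim46 and Trim67, which carry a COS box, lay at or below the array median on all 20 arrays. So did Trim15, Trim17, Trim31, Trim42, Trim59, Trim66, Trim71 and Trim75, while Trim36, Trim40 and Trim69 exceeded it on 1 array. Of the 4 tested atrophy partners of the muscle ligase Trim63, 0 were called at 4.5 h against control, and at 1 h Foxo1 was higher (log2 0.62) and Fbxo32 lower (log2 -0.82). Of the 41 tested, 23 were above the median on all 20 arrays, and 0 had passed the filter through the arrays of 1 group only. Trim5 passed with 2 control arrays and 3 arrays at 4.5 h, so without the late arrays it would have missed the minimum of 3. The 19 Trim genes with no call had largest log2 changes of 0.23 (Trim16) to 1.04 (Trim24).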

How the data were processed

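Liver RNA (1 µg) was labelled from an oligo-dT primer and hybridised to Affymetrix Mouse430_2 arrays, per the labels' protocols. The deposited values are MAS5 intensities on a linear scale per the submitters' processing notes (version not given in the sources used here), and their medians differ between arrays, so no common scaling had been applied by the authors. The values were read as log2(value + 6) and quantile normalized. Of 45101 probe sets, the platform annotation gave 34945 1 gene, 932 several and 9160 none, and 64 were controls. Kept were 27274 probe sets above their array's median on at least 3 arrays, and the one with the highest mean stood for each of 12832 genes. Group means were fitted with limma 3.58.1 in R 4.3.3 over all genes (eBayes with an intensity trend), with 8 comparisons and an F test, with Benjamini-Hochberg adjustment of each over all 12832 genes. Values in all groups are given for members called in at least 1 comparison, in a comparison with none the 2 smallest p-values are named, and from each other list up to 4 called genes with the largest changes. Irf3, Mavs, Marco, Trim6 and Trim24 were named after their values were seen. "At least" folds use the array median as a floor where every array of the lower group lay at or below it. Promoter letters are RefSeq's (GRCm38.p6), which matched 47 of the 58 Trim genes, and both strands were searched. The tests were run on simulated data first. The members and gene lists were chosen with earlier results of these data known. Alternatives were the values as deposited, median centring, pseudocounts of 0 and 18, other filters, the mean of probe sets, array weights, no trend, a block for the spike-in sets, each spike-in set alone, a replicate block, and leaving out arrays.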

Additional observations from a re-analysis of the deposited data

Results flagged for a closer look

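In 88 groups of 4 or 5 arrays, for the 22 Trim genes called in at least 1 comparison, 6 arrays lay far from the rest of their own group by Dixon's ratio, and chance gives about 1 in 20 groups. Control array 4 was low for Trim14 (7.1, the nearest control 8.07) and for Trim30a (5.95, the nearest 6.55), and both genes kept their late call without it. Control array 5 was high for Trim39 (6.96, the nearest control 6.18). Array 4 at 4.5 h was low for Trim27 (7.79, the nearest 8.39), array 3 at 1 h was low for Trim3 (6.26, the nearest 6.5), and array 3 at 4.5 h was low for Trim80 (2.98, the nearest 3.23, all below the array median).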

How the results depend on the processing

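The 17 calls at 4.5 h against control were all kept when any 1 array was left out. Among 70 named results, 0 changed sign in the 34 alternatives, and the most calls changed with the values as deposited (25) and within the spiked (24) and the other (22) poly-A set, which hold fewer arrays. For 4.5 h against control the count of Trim genes called was 13 as deposited (12 of them among the 17), 13 within the spiked set and 16 within the other set (15 among the 17). For 4.5 h against 1 h the count of 17 became 13 as deposited, 13 within the spiked set and 14 within the other set. For 4.5 h against shock the count of 18 became 15 as deposited, 15 within the spiked set and 14 within the other set. For minor trauma against control the count of 1 became 0 as deposited, 2 with median centring and 2 with array weights. It was 0 to 4 when 1 array was left out. For shock against control the count of 3 became 0 as deposited, 1 within the spiked set and 0 within the other set, with 1 to 4 when 1 array was left out. For 1 h against control the count of 8 became 2 as deposited, 3 with median centring, 5 with no filter on dim probe sets, 5 with the mean of probe sets, 0 within the spiked set and 2 within the other set, with 3 to 10 when 1 array was left out. For shock against minor trauma the count of 4 became 2 as deposited and 1 within the spiked set, whose 2 minor trauma arrays include array 3. The other set holds only 1 minor trauma array, so no count within it is given for comparisons with minor trauma. The F test called 13 within either set in place of 20. Why these counts changed was not tested. As deposited, the median of all genes shifted on the log2 scale, against control, by -0.27 in the 4.5 h group, -0.12 in the 1 h group, -0.03 in shock and 0.2 in minor trauma.

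Same-numbered arrays of different groups showed little common deviation (r from -0.08 to 0.17 over 36 pairs, 3 of them over 0.1). Of 19 arrays, 5 correlated best with their own number. The labels do not say whether the numbers pair the samples, and low correlations cannot decide it. With the replicate number as a block the counts against control were 17 at 4.5 h, 6 at 1 h, 3 in shock and 2 in minor trauma.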
